A study of Homo sapiens with 42 samples.

Results

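The 3 GADD45 stress genes, GADD45A, GADD45B and GADD45G, and GADD45GIP1, a gene named for the interaction of its product with the GADD45 proteins, were followed in K562 cells exposed to imatinib, JTE-607 or KCl. The members were taken by symbol from the gene identifiers of the count tables and are 4 of the 58243 genes listed there. K562 is an established line from a chronic myeloid leukemia in blast crisis that depends on the BCR-ABL1 kinase. Cells were left untreated (CTRL) or received 1 μM imatinib (IM), a BCR-ABL1 inhibitor, for 1, 6 or 18 hours, 5 μM JTE-607 (JTE), an inhibitor of the 3′-end nuclease CPSF73, for 1, 6 or 18 hours, or 110 mM KCl, a hyperosmotic shock, for 1 or 3 hours. Polyadenylated RNA of whole cells (mRNA) was sequenced in all 9 of these groups, and rRNA-depleted RNA of nuclei (nuclear) in 5 of them, CTRL, IM 1h, IM 18h, JTE 1h and KCl 1h, with 3 biological replicates each, 42 libraries in all. All groups are the same cell line, so that every value describes 1 leukemia and not a panel of cell models.

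GADD45 proteins are small, acidic nuclear proteins without enzymatic activity of their own. They bind and activate MAP3K4, the kinase at the head of a p38 and JNK cascade, they bind cyclin B1-CDK1, p21 and PCNA, and they have been linked to DNA repair and to active DNA demethylation. GADD45A is a classical target of p53 and of growth arrest and DNA damage, GADD45B an immediate early target of NF-kB and TGF-β signalling in myeloid cells, and GADD45G a cytokine-induced member that is low or silent in many tumor lines. K562 cells lack functional p53. GADD45GIP1, also called CRIF1 or MRPL59, is not a paralog of the other three: it is a protein of the large mitochondrial ribosomal subunit, near the exit of the peptide tunnel.

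Values are raw counts of read pairs, CPM scaled with the TMM factors of the same fraction, or, for levels between genes, TPM (counts divided by exonic length and scaled to the same total in every library). Totals ran from 16439848 to 62953314 pairs in mRNA, where 2 KCl 1h libraries were far deeper than the other 25, which reached at most 22505595, and from 16175394 to 25103205 in nuclear RNA. Tests were edgeR quasi-likelihood fits over all genes of a fraction, 18095 in mRNA and 21929 in nuclear RNA. Calls required an adjusted p (Benjamini-Hochberg) below 0.05 together with a log2 fold change above 0.6 or below -0.6. Overlap of groups of 3 libraries is described for the members alone. The share of all genes without overlap was not computed, so it is no test. All 9 K562 markers, the embryonic and fetal globins HBE1, HBZ, HBG1 and HBG2 among them, were present in every library. Of 9 markers of other cells, KRT5 and MS4A1 were at or near 0 (at most 3 pairs), and EPCAM was present at 61.0 to 128 TPM. The 9 summed to 101 to 117 TPM in IM 18h mRNA, against 125 to 132 TPM in CTRL. In IM 18h the summed K562 markers, erythroid genes, ran from 23689 to 33788 TPM in mRNA, against 6584 to 11307 in CTRL, and 8 of the 9 were called higher. In nuclear RNA 7 of 9 were called higher there. The part of this shift in the IM 18h results for the GADD45 genes was not tested, and more RNA per cell and more cells of a state cannot be told apart in bulk samples.

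On hg38, GADD45A (ENSG00000116717) lies at chr1:67685061-67688338 on the plus strand, GADD45B (ENSG00000099860) at chr19:2476122-2478259 on the plus strand, GADD45G (ENSG00000130222) at chr9:89605013-89606555 on the plus strand and GADD45GIP1 (ENSG00000179271) at chr19:12953119-12957236 on the minus strand. All 4 are protein coding. No annotated gene overlaps the 3 paralogs, and their nearest neighbors on the same strand are 33258 to 143964 bases away. Counting ignored strand, so that pairs from either strand of an exon were counted alike for all 4 genes. For GADD45B and GADD45G, the paralogs with their highest levels in KCl 3h mRNA, the 250 bases before the RefSeq start are shown from GRCh38.p14, at chr19:2475877-2476126 and chr9:89604762-89605011, both on the plus strand, with matches to the motifs searched in capitals.
GADD45B: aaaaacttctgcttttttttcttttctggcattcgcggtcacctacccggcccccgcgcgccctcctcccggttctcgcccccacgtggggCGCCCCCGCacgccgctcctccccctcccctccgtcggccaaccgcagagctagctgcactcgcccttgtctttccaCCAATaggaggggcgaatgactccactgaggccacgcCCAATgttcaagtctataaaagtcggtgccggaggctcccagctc
GADD45G: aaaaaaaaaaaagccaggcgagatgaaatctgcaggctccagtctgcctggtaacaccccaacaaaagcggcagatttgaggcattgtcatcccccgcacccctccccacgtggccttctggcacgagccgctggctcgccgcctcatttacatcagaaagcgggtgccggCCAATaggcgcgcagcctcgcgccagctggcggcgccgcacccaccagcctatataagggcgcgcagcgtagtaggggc

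Motifs of 6 families were searched on both strands: AP-1 (TGANTCA), CRE (TGACGTCA), the ATF4-CEBP composite (TGATGCAA), NF-kB (GGGANTTCC, and the looser GGGNNNTCC, which contains it), EGR (GCGGGGGCG) and the CCAAT box (CCAAT). The GADD45B window holds CCAAT 82 to 78 and again 45 to 41 bases before the start, and 1 EGR match on the minus strand 159 to 151 bases before it. The GADD45G window holds CCAAT 79 to 75 bases before the start and no other match. CCAAT occurs in 32.0% and the EGR letters in 4.72% of the 35116 promoter windows of the same length, so that the CCAAT match is common and the EGR match less so. The GADD45GIP1 window holds 2 matches to GGGNNNTCC, which 18.4% of windows hold, and none of the others. These are matches of letters and were not tested for binding.

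In untreated cells the paralogs differed by orders of magnitude in level. GADD45A stood at 108 ± 34.3 TPM (SD, n = 3) in CTRL mRNA, GADD45B at 1.07 ± 0.779 TPM and GADD45G at 0.0418 ± 0.0724 TPM, with GADD45GIP1 at 48.2 ± 5.95 TPM. In nuclear CTRL the same order held, at 122 ± 22.3 TPM for GADD45A, 89.3 ± 8.98 for GADD45GIP1, 2.07 ± 0.601 for GADD45B and 0.034 ± 0.0589 for GADD45G. GADD45A therefore made up 98.8% ± 1.01 of the summed TPM of the 3 paralogs in CTRL mRNA and 98.3% ± 0.181 in nuclear CTRL. With KCl it made up 82.2% ± 10.4 of the sum in KCl 1h mRNA and 41.0% ± 13.3 in KCl 3h mRNA, where GADD45B took 58.4% ± 12.9. GADD45B exceeded GADD45A in 2 of the 3 KCl 3h libraries, those numbered 1 and 3, and in no library of any other group. The summed level of the 3 paralogs was 109 ± 33.7 TPM in CTRL and 273 ± 106 TPM in KCl 3h mRNA, and the GADD45A level alone was 103 ± 24.8 TPM there. In the nuclear IM 18h libraries GADD45G, otherwise a trace, made up 1.97% ± 0.382 of the sum.

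**Figure D1:**
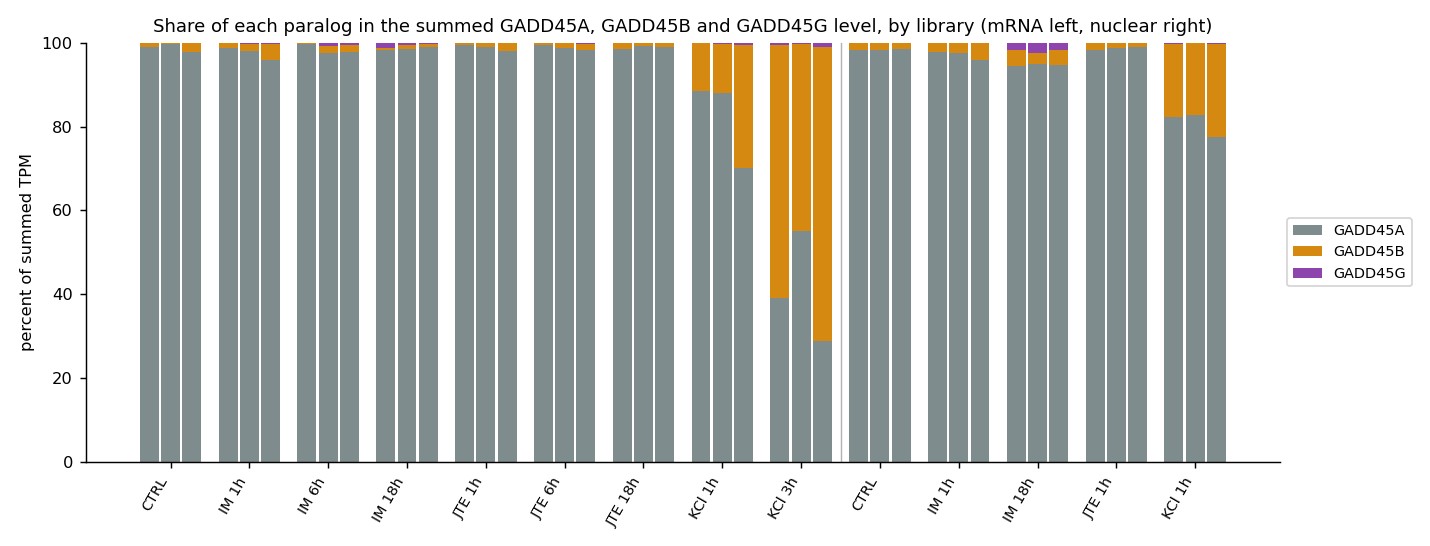
Share of GADD45A (grey), GADD45B (orange) and GADD45G (purple) in the summed TPM of the 3 paralogs, in percent, 1 bar per library, mRNA groups left of the line and nuclear groups right of it. GADD45A fills nearly the whole bar in all groups but KCl, and GADD45B takes 44.5% to 70.0% in the 3 KCl 3h libraries.

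GADD45B was the member with the largest response in the series, and it responded to KCl. In CTRL mRNA its 3 libraries held 11, 6 and 25 pairs, or 0.606, 0.314 and 1.39 CPM. After KCl for 1 hour they held 256, 489 and 1008 pairs, or 13.3, 8.19 and 23.4 CPM, and after 3 hours 2731, 1016 and 3081 pairs, or 134, 48.0 and 152 CPM. Every KCl library stood above every CTRL library, and the 1h and 3h ranges did not overlap. The log2 fold change against CTRL was 4.28 (SE 0.51, adjusted p = 8.96e-06) in KCl 1h and 7.18 (SE 0.53, adjusted p = 5.22e-09) in KCl 3h, a 19.4-fold and a 145-fold rise. From 1 to 3 hours the log2 level rose by a further 2.90 (SE 0.40, adjusted p = 7.79e-05). Of all genes tested in mRNA, 5.45% were called in KCl 1h and 11.9% in KCl 3h against CTRL, and 3.29% between the KCl times. Of the 4 members, GADD45B alone was called in KCl 1h and between the KCl times, and GADD45B and GADD45G in KCl 3h. The GADD45G call there is output of the fit and supports nothing beyond its counts. By fold change GADD45B ranked 144th in KCl 1h and 58th in KCl 3h among the 18095 genes, counted from the largest rise.

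Nuclear RNA gave the same direction at 1 hour with less spread. GADD45B held 41, 30 and 22 pairs in nuclear CTRL (1.83, 1.37 and 1.09 CPM) and 375, 400 and 343 pairs in nuclear KCl 1h (18.4 ± 1.69 CPM). The groups did not overlap, and the log2 fold change was 3.67 (SE 0.22, adjusted p = 4.2e-10), a 12.8-fold rise. Here 23.8% of 21929 genes were called, and GADD45B was the only member among them. The rise in nuclei and the rise in mRNA at 1 hour differed by -0.71 on the log2 scale (nuclear minus mRNA, 95% interval -2.07 to 0.65, adjusted p = 0.834), so that a difference of either sign was not resolved, with 0.668% of genes called in that test. In the same hour of treatment JTE left GADD45B far below KCl: KCl 1h exceeded JTE 1h by 4.48 (SE 0.52, adjusted p = 6.86e-06) in mRNA, where 4.29% of genes were called.

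The other treatments left GADD45B at or below 1.47 CPM in mRNA. Its 18 IM and JTE libraries ran from 0.172 CPM, in an IM 6h library, to 1.47 CPM, in an IM 1h library, and all 6 groups overlapped CTRL. The fitted log2 fold changes lay between -0.94 (IM 18h, 95% interval -2.51 to 0.63) and 0.61 (IM 1h, -0.67 to 1.89), and no adjusted p was under 0.332. IM 18h libraries held 5, 11 and 6 pairs, so that at these counts a drop by a few pairs was not detectable. In nuclei the JTE 1h libraries held 31, 21 and 15 pairs (1.28, 1.02 and 0.605 CPM), lower than CTRL of the same replicate number in all 3, with a log2 fold change of -0.57 (SE 0.27, unadjusted p = 0.0495, adjusted p = 0.228). Nuclear IM 18h held 60, 33 and 31 pairs (2.45, 1.58 and 1.81 CPM), higher than CTRL of the same number in all 3, with 0.45 (SE 0.25, adjusted p = 0.154). The ordered means of the 9 mRNA groups ran IM 18h, IM 6h, JTE 1h, CTRL, JTE 18h, JTE 6h, IM 1h, KCl 1h, KCl 3h, with overlapping ranges between each neighboring pair up to IM 1h and gaps only below KCl 1h and below KCl 3h.

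**Figure D2:**
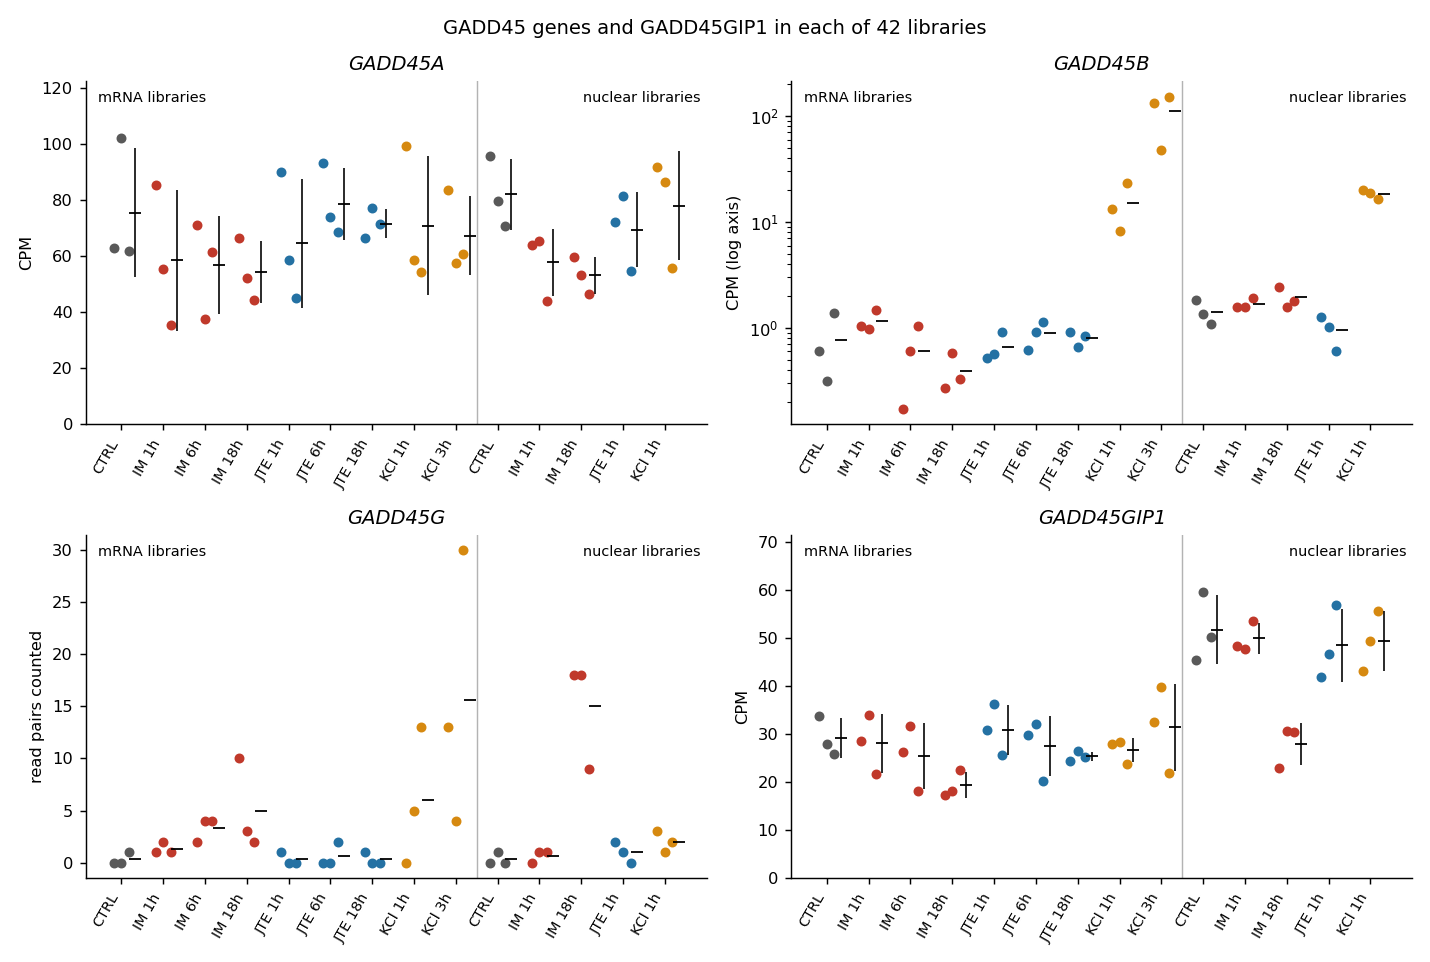
Level of each member in every library: CPM for GADD45A, GADD45B (log axis) and GADD45GIP1, and counted read pairs for GADD45G. Points are libraries (grey CTRL, red IM, blue JTE, orange KCl), black dashes group means and, for GADD45A and GADD45GIP1, black lines ± 1 SD (n = 3). The KCl points of GADD45B lie above all others of their fraction, and GADD45G is near 0 outside IM 6h, IM 18h and KCl.

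GADD45A, the abundant paralog, was not called in any mRNA comparison. In CTRL mRNA it stood at 62.7, 102 and 61.7 CPM, in KCl 1h at 99.2, 58.5 and 54.4 CPM and in KCl 3h at 83.5, 57.5 and 60.8 CPM. The IM 18h libraries stood at 66.4, 52.2 and 44.4 CPM. The 8 log2 fold changes against CTRL lay between -0.47 (IM 18h, 95% interval -1.12 to 0.17) and 0.06 (JTE 6h, -0.58 to 0.70), and all 8 groups overlapped CTRL. The intervals thus leave room for changes of about the size of the threshold. In mRNA KCl 3h, where GADD45B rose, the GADD45A estimate was -0.17 (-0.80 to 0.47). GADD45A varied by library number: as the count tables number them, library 1 held the highest level in 7 of the 9 mRNA groups and library 3 the lowest in 6. The numbers of mRNA CTRL 1 and 2 are in doubt, since the count tables and the study's own list of library totals give them exchanged, and with the exchange library 1 was the highest in 8 of 9. As the count tables number them, GADD45A was below CTRL of its number in 2 of 3 pairs in IM 1h, IM 6h, IM 18h, JTE 1h, KCl 1h and KCl 3h. Exchanged, it was below in all 3 pairs in each of these groups. In JTE 6h and JTE 18h it was below in 1 of 3 with either numbering. The 3 of 3 thus depends on the numbering, and the share of all genes with it was not computed. With the exchanged numbers as a block the value in IM 18h was -0.45 (SE 0.19, adjusted p = 0.0539), and GADD45A was again not called in any mRNA comparison.

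In nuclear RNA, GADD45A was lower with IM. Nuclear CTRL stood at 95.7, 79.7 and 70.8 CPM, IM 1h at 64.0, 65.3 and 44.03 CPM and IM 18h at 59.7, 53.2 and 46.5 CPM. Neither IM group overlapped CTRL, and the share of all genes for which this holds was not computed. In IM 18h the log2 fold change was -0.63 (SE 0.20, adjusted p = 0.0186), a call at the edge of the fold threshold. In IM 1h it was -0.51 (SE 0.20), with an unadjusted p of 0.0235 and an adjusted p of 0.879, where 0.0456% of all genes were called and none of the 4 members. The nuclear libraries of 1 number varied together, with the library numbered 3 the lowest in all 5 groups. Within numbers 1, 2 and 3, IM 18h differed from CTRL by -0.68, -0.58 and -0.61 and IM 1h by -0.58, -0.29 and -0.68 on the log2 scale. With the replicate number as a block the adjusted p of GADD45A was 1.15e-07 in IM 18h and 0.000558 in IM 1h, where the log2 fold change of -0.52 stayed short of the threshold. Nuclear IM 18h is the comparison with the most members called, 3 of 4, in which 32.6% of all genes were called. Of these 3, the GADD45G call is output of the fit and supports nothing beyond its counts. The GADD45A call there was lost without CTRL replicate 1 (-0.46), without CTRL replicate 2 (-0.59) or without IM 18h replicate 3 (-0.54). Nuclear JTE 1h (72.2, 81.3 and 54.8 CPM) and KCl 1h (91.7, 86.5 and 55.7 CPM) overlapped CTRL.

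**Figure D3:**
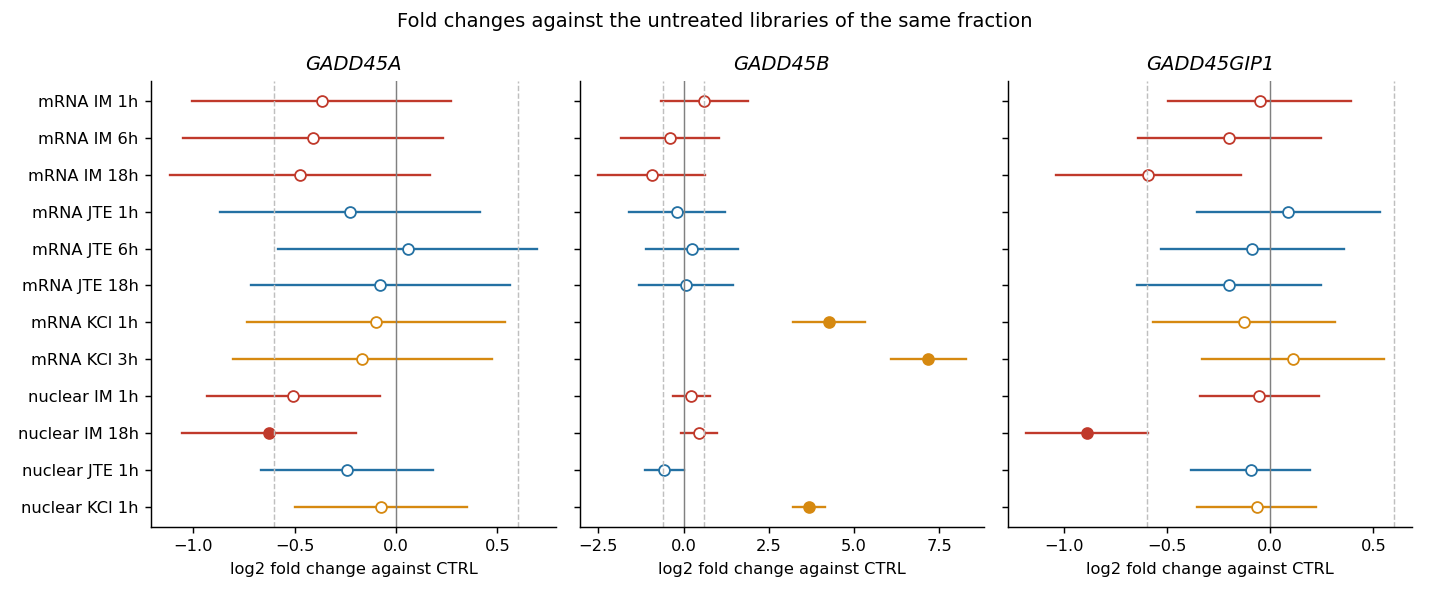
Log2 fold change against CTRL of the same fraction for GADD45A, GADD45B and GADD45GIP1 in the 12 comparisons, with 95% intervals from the edgeR fit. Filled points were called, dashed lines mark a log2 fold change of 0.6 in either direction, and the horizontal scales differ between panels. GADD45B is called in the 3 KCl comparisons, and GADD45A and GADD45GIP1 in nuclear IM 18h.

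GADD45G was nearly silent outside 2 treatments. The 3 CTRL mRNA libraries held 0, 0 and 1 pairs, and the 3 nuclear CTRL libraries 0, 1 and 0. With IM the mRNA count was 1, 2 and 1 pairs after 1 hour, 2, 4 and 4 after 6 hours and 10, 3 and 2 after 18 hours. Nuclei held 18, 18 and 9 pairs after 18 hours of IM and at most 1 pair per library after 1 hour. With KCl the mRNA libraries held 0, 5 and 13 pairs after 1 hour and 13, 4 and 30 after 3 hours, and the nuclear KCl 1h libraries 3, 1 and 2. No JTE library of either fraction held more than 2 pairs. In pairs, all libraries of IM 18h, IM 6h and KCl 3h stood above all CTRL libraries in mRNA, and those of IM 18h did so in nuclei, where KCl 1h replicate 2 and CTRL replicate 2 held 1 pair each.

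Pooled over 3 libraries and set against 1 pair in CTRL, the GADD45G rate was 48.6 times that of CTRL in nuclear IM 18h (45 pairs, exact 95% counting interval 8.30 to 1963), 40.8 times in mRNA KCl 3h (47 pairs, 6.98 to 1646) and 15.3 times in mRNA IM 18h (15 pairs, 2.35 to 642). These intervals cover counting error only and are wide because they rest on a single CTRL pair. GADD45G passed the filter on low counts only through the groups where it was high. Its adjusted p and calls are therefore given as output of the fit and support nothing beyond the counts. They were adjusted p = 1.74e-05 in nuclear IM 18h, 0.0028 in mRNA KCl 3h and 0.0375 in mRNA IM 18h, where 30.5% of all genes and no other member were called. Its fitted folds depend on the prior count and are not given. The mRNA IM 18h call was lost without IM 18h replicate 1, which holds 10 of the 15 pairs (adjusted p = 0.225), and without CTRL replicate 1 (adjusted p = 0.11) or CTRL replicate 2 (adjusted p = 0.108). Against JTE 18h, which held 1, 0 and 0 pairs, the adjusted p of IM 18h was 0.0367, a value under the same limit, with 30.3% of genes and no other member called between them. That call was lost without IM 18h replicate 1 (adjusted p = 0.221), without JTE 18h replicate 2 (adjusted p = 0.0987) and without JTE 18h replicate 3 (adjusted p = 0.112). Between the KCl times its adjusted p was 0.0527, and 0.0154 with the exchanged numbers as a block. Even where it was highest, in KCl 3h mRNA, GADD45G reached 1.89 ± 1.65 TPM, against 168 ± 88.6 TPM for GADD45B.

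GADD45GIP1, the mitochondrial ribosome protein, was lower after 18 hours of IM. Nuclear CTRL stood at 45.5, 59.7 and 50.4 CPM and nuclear IM 18h at 23.0, 30.6 and 30.4 CPM, without overlap. The log2 fold change was -0.89 (SE 0.14, adjusted p = 3.22e-05), and within numbers 1, 2 and 3 the log2 ratio of IM 18h to CTRL was -0.98, -0.96 and -0.73. In nuclear IM 18h 32.6% of all genes were called, and 26.9% changed at least as much in either direction. In mRNA the CTRL libraries stood at 33.8, 27.9 and 25.8 CPM and IM 18h at 17.4, 18.2 and 22.5 CPM, also without overlap. There the log2 fold change was -0.59 (SE 0.22, adjusted p = 0.0305), just short of the fold threshold. In mRNA IM 18h 30.5% of all genes were called, and 41.9% changed at least as much in either direction. The nuclear and mRNA responses at 18 hours differed by -0.24 (95% interval -0.69 to 0.20), so that a difference between the fractions was not resolved. The other 7 mRNA groups overlapped CTRL, with log2 fold changes from -0.20 to 0.11, as did the other 3 nuclear groups, from -0.09 to -0.05.

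No member was called in 7 of the 12 comparisons with CTRL by edgeR, 2 of their values had an unadjusted p under 0.05 (GADD45A in nuclear IM 1h and GADD45B in nuclear JTE 1h), and DESeq2 called none of them. In mRNA these were IM 1h, with 0.0166% of all genes called, IM 6h, with 9.94%, JTE 1h, with 0.851%, JTE 6h, with 13.2%, and JTE 18h, with 5.39%. In nuclei they were IM 1h, above, and JTE 1h, with 8.52%. Both tools also called no member, and none had an unadjusted p under 0.05, between IM 1h and IM 6h (8.2% of genes called), IM 6h and IM 18h (4.41%), JTE 1h and JTE 6h (9.23%), JTE 6h and JTE 18h (13.4%), or IM 6h and JTE 6h (23.8%). The nuclear response minus the mRNA response was not called for any member at IM 1h (0% of genes called by edgeR, 395 with an unadjusted p under 0.05, and 0 called by DESeq2), IM 18h (0.0901%) or JTE 1h (0.0605%). GADD45B at IM 18h had the largest such value among GADD45A, GADD45B and GADD45GIP1, 1.44 (95% interval 0.15 to 2.74, unadjusted p = 0.0308, adjusted p = 0.941), from a lower estimate in mRNA and a higher one in nuclei. GADD45G passed the filter of these fits at IM 18h alone, with 1.52 (95% interval -3.01 to 6.04).

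The next lists hold genes known to act with or downstream of the GADD45 proteins. Of 14 listed p38 and JNK cascade genes, 13 were tested, and in mRNA KCl 3h 1 was higher and 0 lower, where 11.9% of all genes were called (median log2 fold change 0.00, against 0.02 over all genes). That gene was MAPK13, p38-delta, with 1.33 (SE 0.39, adjusted p = 0.0193). It was also the only one of the list called in mRNA KCl 1h, at 1.53 (SE 0.38, adjusted p = 0.0118), and in nuclear KCl 1h, at 3.08 (SE 0.26, adjusted p = 1.73e-08). In nuclear IM 18h, 1 was higher and 2 lower: MAPK13 at 1.04 (SE 0.28, adjusted p = 0.00494), MAPKAPK3, a p38-activated kinase, at -1.22 (SE 0.12, adjusted p = 7.53e-08) and MAPK12, p38-gamma, at -0.60 (SE 0.11, adjusted p = 0.000118). MAP3K4 itself was called in none of the 12 comparisons with CTRL. The shares of all genes called were 5.45% in mRNA KCl 1h, 23.8% in nuclear KCl 1h and 32.6% in nuclear IM 18h.

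Of the 4 cell cycle partners, CDK1, CCNB1, CDKN1A and PCNA, only CDKN1A, the p21 inhibitor, was called in a comparison with CTRL. It was higher in mRNA KCl 3h, at 2.50 (SE 0.37, adjusted p = 2.64e-05), and lower in mRNA IM 18h, at -1.65 (SE 0.44, adjusted p = 0.00401), from 2.10 ± 0.234 to 0.665 ± 0.053 CPM. It was also called lower in nuclear IM 18h. Among 7 tested repair and demethylation partners, nuclear IM 18h had 1 higher, the dioxygenase TET2 at 0.81 (SE 0.17, adjusted p = 0.000602), and 1 lower, the glycosylase TDG at -0.63 (SE 0.13, adjusted p = 0.000642). In mRNA KCl 3h 1 was higher, ING1, a PHD protein reported to recruit GADD45A, at 0.83 (SE 0.13, adjusted p = 4.73e-05). The shares of all genes called were 11.9% in mRNA KCl 3h, 30.5% in mRNA IM 18h and 32.6% in nuclear IM 18h.

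Genes known as p53 targets moved in both directions with IM. Of 16 tested, 4 were higher and 4 lower in mRNA IM 18h, where 30.5% of all genes were called. Their median was -0.07, against 0.04 over all genes. The largest rises were TP53INP1, a stress-induced autophagy and cell death protein, at 2.91 (SE 0.37, adjusted p = 1.55e-06), and BTG2, an antiproliferative gene, at 2.42 (SE 0.31, adjusted p = 2.37e-06). The largest falls were PLK3, a polo-like kinase, at -3.18 (SE 0.50, adjusted p = 2.67e-05), and TNFRSF10B, the TRAIL receptor DR5, at -2.01 (SE 0.32, adjusted p = 3.64e-05). In mRNA KCl 3h 1 of the 16, CDKN1A, was higher and 0 lower, beside the GADD45B rise and with 11.9% of all genes called.

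Among the 10 other GADD-named and integrated stress genes, PPP1R15A (GADD34), a phosphatase subunit that restores translation, was the 1 called higher in mRNA KCl 3h, at 1.23 (SE 0.20, adjusted p = 0.000127), and in mRNA IM 18h, at 0.62 (SE 0.20, adjusted p = 0.0158). TRIB3, a pseudokinase induced by ATF4, was the 1 called lower in mRNA IM 18h, at -1.42 (SE 0.47, adjusted p = 0.0195). DDIT3 (GADD153 or CHOP) was the 1 called in nuclear KCl 1h, at 0.82 (SE 0.17, adjusted p = 0.000987). The shares of all genes called were 11.9% in mRNA KCl 3h, 30.5% in mRNA IM 18h and 23.8% in nuclear KCl 1h. The median of this list was -0.43 in mRNA KCl 3h, against 0.02 over all genes, although its only called gene rose. It was below 0 in every other mRNA comparison with CTRL too, from -0.13 (KCl 1h) to -1.23 (JTE 18h), so it is not particular to KCl. In nuclei the list median ran from -0.09 (JTE 1h) to 0.52 (KCl 1h). The CTRL mRNA libraries differed widely in TRIB3, at 71.9 ± 42.6 CPM.

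The NF-kB feedback genes had the highest share called of the 8 lists in IM 18h. Of 9, 6 were lower and 1 higher in mRNA, where 30.5% of all genes were called (median -0.94, against 0.04 over all genes). In nuclei 6 were lower and 2 higher, where 32.6% of all genes were called (median -0.77, against 0). The inhibitor of NF-kB signalling TNFAIP3 (A20) was at -1.30 (SE 0.34, adjusted p = 0.00715) in nuclear IM 18h and the chemokine CXCL8 at -1.88 (SE 0.61, adjusted p = 0.0183), while BIRC3, an inhibitor of apoptosis, rose by 1.82 (SE 0.44, adjusted p = 0.00186) and the NF-kB subunit RELB by 1.04 (SE 0.42, adjusted p = 0.0494). In mRNA KCl 3h 2 were higher and 0 lower, IER3, an immediate early gene, at 3.02 (SE 0.31, adjusted p = 2.58e-07) and NFKBIA, the inhibitor IkB-alpha, at 0.74 (SE 0.21, adjusted p = 0.0139). The median there was 0.34, with 11.9% of all genes called.

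Of 12 factors known to act on GADD45 genes, 3 were higher and 3 lower in nuclear IM 18h, where 32.6% of all genes were called. FOXO3, a forkhead factor that activates GADD45A, rose by 1.29 (SE 0.14, adjusted p = 4.76e-07), from 35.7 ± 3.76 to 87.1 ± 13.3 CPM, and ZNF350, a zinc finger repressor of GADD45A, by 0.98 (SE 0.22, adjusted p = 0.000979). EGR1, whose motif letters stand in the GADD45B window, fell by 4.94 on the log2 scale (SE 0.65, adjusted p = 9.06e-05), from 123 ± 46.7 to 4.05 ± 1.27 CPM, and MYC, a repressor of GADD45A, was at -1.71 (SE 0.18, adjusted p = 1.35e-06). In mRNA KCl 3h only ZNF350 was called, at -1.18 (SE 0.31, adjusted p = 0.00957), with 11.9% of all genes called. NFAT5, the osmotic stress factor, was not called in any of the 12 comparisons with CTRL, and came closest in mRNA KCl 1h, at 0.60 (SE 0.13, adjusted p = 0.00384), just short of the fold threshold.

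The 9 partners of GADD45GIP1 at the mitochondrial ribosome had medians below those of all genes in IM 18h. In nuclear IM 18h, 0 were higher and 4 lower, where 32.6% of all genes were called (median -0.54, against 0 over all genes). In mRNA IM 18h it was 0 and 2, where 30.5% were called (median -0.40, against 0.04) and GADD45GIP1 itself was not. These counts of calls are not read as a result about the partners. The largest called falls in nuclear IM 18h were in MRPL12, at -1.31 (SE 0.15, adjusted p = 4.59e-07), and MRPL24, at -1.09 (SE 0.15, adjusted p = 5.53e-06), both proteins of the large subunit. In mRNA JTE 18h, where GADD45GIP1 was not called, 2 were lower, with 5.39% of all genes called. All these counts stand beside the shares of all genes called, 30.5% in mRNA IM 18h, 32.6% in nuclear IM 18h, 5.45% in mRNA KCl 1h, 11.9% in mRNA KCl 3h, 23.8% in nuclear KCl 1h and 5.39% in mRNA JTE 18h. The genes named from mRNA KCl 1h, mRNA KCl 3h and nuclear KCl 1h were chosen after their values were seen.

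**Figure D4:**
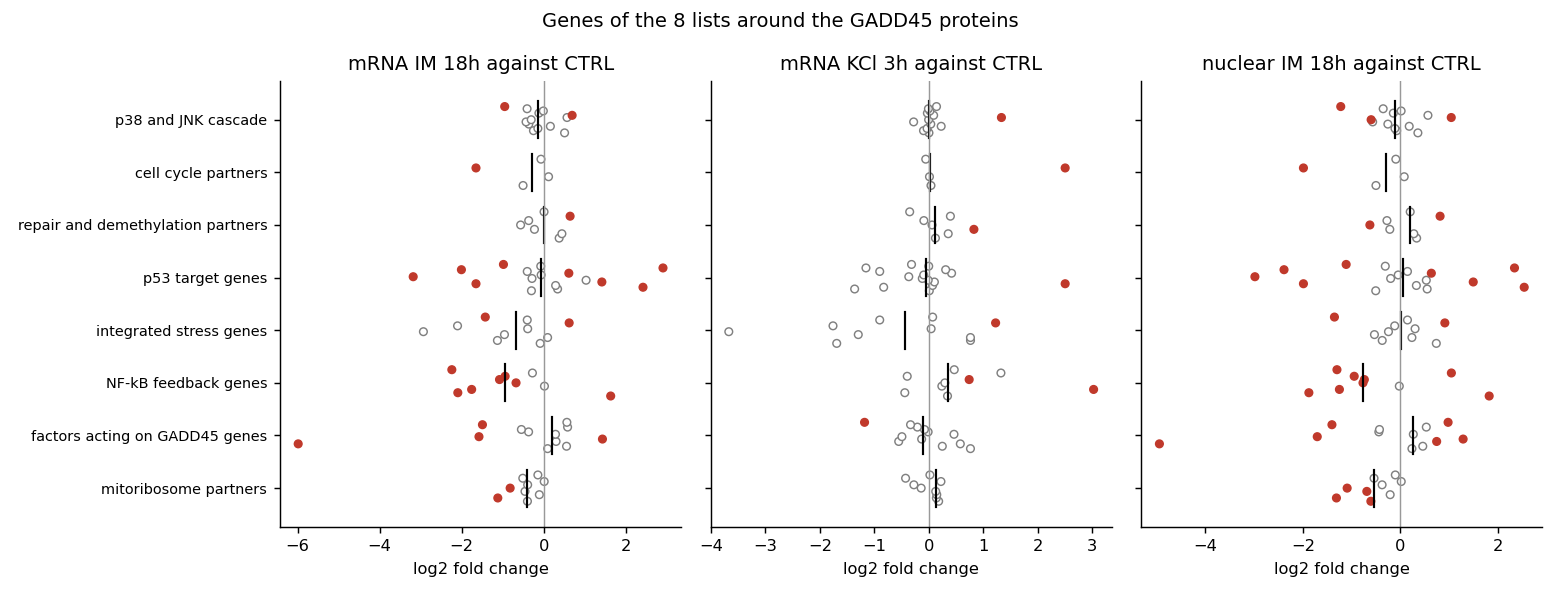
Log2 fold change against CTRL of the tested genes of 8 lists in mRNA IM 18h, mRNA KCl 3h and nuclear IM 18h. Each point is 1 gene (red, called; white, not called), vertical bars are list medians, and the horizontal scales differ between panels. The list medians lie between -0.94 and 0.34, and called genes of most lists stand on both sides of 0 in IM 18h.

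The genes whose pattern was most like each member were found by the Pearson correlation of log2(CPM + 0.5) over the 27 mRNA libraries, among 11015 protein-coding genes with a mean of at least 1 CPM. These libraries are of 1 cell line and share their CTRL group, and r is a description. For GADD45B the closest were BRD2, a bromodomain protein, with r = 0.98, FGF18, a growth factor, with 0.97, and FOSB, an AP-1 subunit, with 0.96. Over the 15 nuclear libraries, which were not used to choose them but include KCl 1h, r was 0.96, 0.94 and 0.96. Outside KCl, GADD45B stayed at or below 1.47 CPM in mRNA, so r rests mainly on the KCl libraries. The nuclear r is therefore not an independent check, and r without KCl was not computed. FGF18 reached the mean of 1 CPM only through KCl. FOSB stood at 1.85 ± 0.86 CPM in CTRL, 20.1 ± 9.99 in KCl 1h and 54.2 ± 20.6 in KCl 3h, and BRD2 at 279 ± 42.1, 735 ± 80.9 and 1370 ± 166 CPM. FGF18 went from 0.0358 ± 0.0311 to 3.13 ± 1.01 and 18.1 ± 2.94 CPM. In all 3 genes the mean of KCl 3h was above that of KCl 1h, as for GADD45B.

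**Figure D5:**
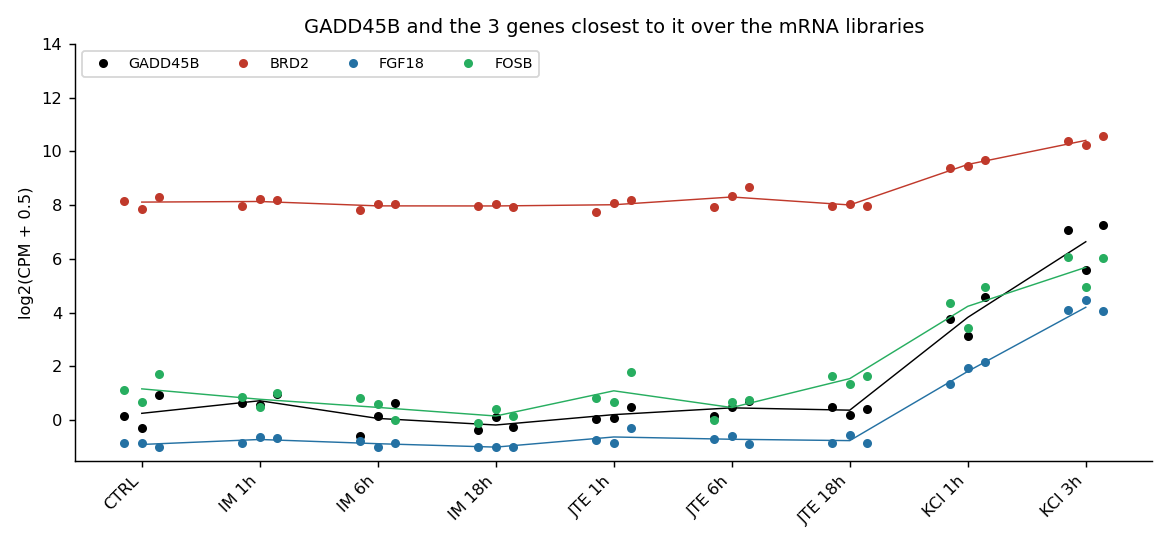
Level of GADD45B (black) and of BRD2 (red), FGF18 (blue) and FOSB (green) as log2(CPM + 0.5) in the 27 mRNA libraries. Points are libraries and lines join group means. The group means of all 4 genes are highest in KCl 3h, and FOSB in IM 18h (0.627 ± 0.205 CPM) lies below its CTRL libraries.

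For GADD45A the closest were PMAIP1 (NOXA), a BH3-only cell death protein, with r = 0.85 (0.81 in nuclei), CEBPG, a bZIP factor, with 0.81 (0.60), and MORC3, a chromatin ATPase, with 0.80 (0.78). GADD45A was not called in any mRNA comparison and varied by library number, so its r does not show a shared response to treatment. Within CTRL mRNA, PMAIP1 stood at 13.3 ± 9.07 CPM and CEBPG at 71.3 ± 38.9 CPM. The part of variation between replicates in r was not tested. For GADD45G, whose values rest on few pairs, the closest were RGS2, a regulator of G protein signalling, with 0.86 (0.82), DUSP1, a phosphatase that inactivates p38 and JNK, with 0.82 (0.67), and PPP1R15A, with 0.81 (0.78). DUSP1 stood at 10.9 ± 0.694 CPM in CTRL, 19.6 ± 1.89 in IM 18h and 42.8 ± 5.01 in KCl 3h mRNA. For GADD45GIP1 they were TIMM8B, a chaperone of the mitochondrial intermembrane space, with 0.96 (0.95), PSMC4, a proteasome ATPase, with 0.95 (0.97), and CDC37, a kinase co-chaperone, with 0.94 (0.93). The members were little alike among themselves: over the mRNA libraries r was 0.66 between GADD45B and GADD45G and between -0.31 and 0.19 for the other 5 pairs. Over the 15 nuclear libraries r was -0.90 between GADD45G and GADD45GIP1, of which the first was higher and the second lower in IM 18h, and between -0.42 and 0.27 for the others.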

How the data were processed

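K562 RNA was sequenced as paired reads in 27 mRNA and 15 nuclear libraries. The authors trimmed and deduplicated the reads, aligned them to hg38 with STAR keeping unique hits and limiting intron length, at a limit longer than each of the 4 genes, and counted pairs over exons with featureCounts without a strand option. The deposited values are raw counts per gene. The annotation release was not given in the sources used here. Of 58243 gene IDs, 57532 are in GENCODE 44, which supplied symbols and neighbors.

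The tests used edgeR 4.0.16 under R 4.3.3 (TMM, filterByExpr, robust quasi-likelihood, Benjamini-Hochberg), 1 fit per fraction with a term per group, and 12-library fits for nuclear minus mRNA responses. The code was tested on simulated counts. The members and the gene lists were chosen with earlier results of these data known, and the lists are described by counts and medians. Named list genes were, in the comparison with CTRL that called most of a list, the top 2 called genes in each direction. TPM used the length column of the count tables, and promoter windows came from RefSeq, which held 3 of the 4 members.

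Replicate numbers come from the sample titles. Same-number nuclear libraries deviated together from their group means (r with CTRL of 0.235 to 0.891), so the numbers pair them. In mRNA r ran from -0.368 to 0.877 as deposited. The study's list of library totals gives mRNA CTRL 1 and 2 exchanged, and so numbered r ran from 0.0553 to 0.877, over 0.1 in every group but JTE 18h. A block with the exchanged numbers was added after the data were seen. Which numbering is right is not known, and the text keeps that of the count tables. Alternatives were DESeq2 1.42.0, RLE and upper-quartile scaling, no count filter, no fold threshold, thinned counts, fits of only the compared libraries, a replicate block and leaving out each library. Replicates were separate experiments and differed by more than sampling noise. A result for a withheld gene is not reported here.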

Additional observations from a re-analysis of the deposited data

How the results depend on the processing

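The 11 calls, of which 4 are of GADD45G and rest on its counts alone, kept their direction in all alternatives that tested them, and the 6 for GADD45B and GADD45GIP1 were kept in each. The number of members called in mRNA IM 18h was 1, and 3 with no count filter, 2 with RLE scaling, 2 with DESeq2, 2 with no fold threshold and 0 to 2 when 1 library was left out. GADD45G was not tested there with thinned counts or with only the libraries compared, where the 1 member called was GADD45GIP1. In mRNA KCl 3h it was 2, and 1 in those 2 settings, where GADD45G was not tested. Between IM 1h and IM 6h it was 0, and 1 with no filter. Between the KCl times it was 1, and 2 with no filter, with upper-quartile scaling or with the replicate block, and 1 to 2 with a library left out. Between IM 18h and JTE 18h it was 1, and 2 with no filter, 0 with thinned counts and 0 to 1 with a library left out. With only the libraries compared the 1 member called there was GADD45B, at -1.05, and GADD45G was not tested. Except where GADD45G was not tested, the cause was not tested.

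The replicate block changed 1 call, GADD45G between the KCl times (adjusted p = 0.0206 with edgeR, against 0.0527), and no nuclear call. As deposited it may join mRNA CTRL 1 and 2 to libraries of another number. With these exchanged, a block added after the data were seen, the same call changed (2 members, adjusted p = 0.0154 with edgeR) and no other. GADD45A in nuclear IM 18h was -0.50 and no longer called with upper-quartile scaling, which moved the median of all genes from 0 to 0.12. The mRNA change of GADD45GIP1 in IM 18h passed the fold threshold in 5 alternatives other than leaving out a library, at -0.61 with RLE or DESeq2. With no filter GADD45B was called lower in mRNA IM 18h, at -1.02 (adjusted p = 0.0317 with edgeR). Of the 74 values that no setting called, 42 changed sign in at least 1 setting, so they carry no direction. The low counts of GADD45G limit its values most.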
